A study of Mus musculus with 8 samples.

Results

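The epidermal cells of newborn mouse paw were compared with those of newborn back skin in 4 RNA-seq libraries, 2 from each site, out of 8 libraries in the series. The members are the libraries whose labels give the cell type IFE, an abbreviation the labels do not spell out, taken by skin source (paw or back). The other 4 libraries hold Merkel cells, the touch receptor cells of the epidermis, from the same sites, 2 from each, and entered the fit and the comparison of the site difference between cell types. All 8 came from epidermis at postnatal day 0 of mice with the Atoh1-GFP genotype, in which a fluorescent protein marks cells that make Atoh1, the transcription factor of Merkel cells. After digestion with collagenase and then trypsin, EpCAM-positive cells were sorted. Those with Sca1 and without GFP were taken as IFE, and those with GFP and without Sca1 as Merkel cells. The labels name no strain, and nothing in them ties a library to its own animal. The p-values therefore cover only the spread seen among these samples, which may be technical.

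Paw skin is glabrous on its ventral surface, where it carries footpads and sweat glands and makes the keratin Krt9, and back skin is hairy. Skin cells keep a record of their position in the Hox genes, a family of clustered transcription factors: genes at one end of each cluster are used toward the head and those at the other end toward the tail and the tips of the limbs. En1 marks the ventral side of the developing limb. Type I interferon induces a set of antiviral genes through an element in their promoters, to which a complex that holds Stat2 and Irf9 binds.

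Most genes that were 8-fold or more lower in each paw library than in each back library, at 10 CPM or more in both back libraries, were of that antiviral set, so promoters of 4 interferon-induced genes are shown. CPM are counts scaled to a common library size. Of the 4 promoters, those of Rsad2, Ifit1 and Igtp belong to genes within these limits, and that of Ifit3 does not. Each is the stretch of 170 bases before the annotated start (RefSeq, GRCm38.p6), 5′ to 3′ on the gene's strand, with matches in capitals to the letters GAAA repeated after a gap of any 2 bases (TTTC repeated likewise when read from the other strand).
Rsad2, chr12:26456453-26456622, minus strand: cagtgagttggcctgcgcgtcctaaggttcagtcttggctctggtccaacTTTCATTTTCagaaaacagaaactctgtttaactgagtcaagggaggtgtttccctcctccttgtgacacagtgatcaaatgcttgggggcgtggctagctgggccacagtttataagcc
Ifit1, chr19:34640719-34640888, plus strand: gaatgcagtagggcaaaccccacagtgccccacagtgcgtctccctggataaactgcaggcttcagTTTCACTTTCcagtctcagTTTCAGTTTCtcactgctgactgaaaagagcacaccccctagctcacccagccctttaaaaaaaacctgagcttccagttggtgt
Ifit3, chr19:34583359-34583528, plus strand: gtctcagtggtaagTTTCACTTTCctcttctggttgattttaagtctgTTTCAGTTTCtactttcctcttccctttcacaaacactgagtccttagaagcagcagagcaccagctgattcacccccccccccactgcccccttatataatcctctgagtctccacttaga
Igtp, chr11:58199386-58199555, plus strand: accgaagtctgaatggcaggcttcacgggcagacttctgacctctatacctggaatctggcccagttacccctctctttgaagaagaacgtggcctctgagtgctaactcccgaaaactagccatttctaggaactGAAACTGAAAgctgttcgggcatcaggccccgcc
The match lies 120 bases before the start of Rsad2, at 104 and 85 bases before that of Ifit1, at 156 and 122 bases before that of Ifit3, and 34 bases before that of Igtp. The same pattern, on either strand, was in 613 of 32851 promoter windows of this length (1.87%). Of 42 windows that belong to the 36 genes of the interferon list found in the RefSeq table, 17 held it (40.5%). By gene, 16 of the 36 held it, and the 4 shown are among these. A match describes the letters of the window and is not evidence that a factor binds there.

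All 4 libraries carried the genes that define the epidermis. Values are given in CPM, always in the order paw IFE 1 and paw IFE 2, against back IFE 1 and the library labelled back IFE 2. Krt5, a keratin of the basal layer, was at 16517 and 13892 against 26604 and 15679 CPM. Its partner Krt14 was at 2989 and 2978 against 6035 and 4379 CPM, and Trp63, the master transcription factor of stratified epithelium, at 1656 and 1419 against 2067 and 2066 CPM. Krt10, the keratin of the first suprabasal layers, was at 2646 and 5565 against 3449.7 and 2250.2 CPM, so markers of both the basal and the suprabasal layers were present in each library. The genes of the sort behaved as gated: Atoh1 was at 0.0815 and 0.148 against 0.163 and 0.458 CPM (178 to 305 CPM in the Merkel libraries), and Ly6a, which encodes Sca1, was at 20.9 and 20.5 against 35.1 and 59.7 CPM. Total counts were 17510481 to 26195076 in the 4 libraries, with 14718 to 15869 genes above 0, and no 2 libraries held the same values.

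The library labelled back IFE 2 stood with the paw libraries for genes of limb position, and levels are therefore given for each back library on its own. Whether the labelled site of that library is the site its cells came from was not tested. Every value for back skin as a group, the count of genes that passed included, rests on that label. Among genes at 10 CPM or more in either library of a pair, the median absolute log2 difference was 0.37 between the paw libraries, 0.58 between each paw library and back IFE 1, 0.42 and 0.40 between paw IFE 1 or 2 and the library labelled back IFE 2, and 0.48 between the back libraries. Genes apart by 4-fold or more numbered 198 between the paw libraries, 887 and 880 from paw IFE 1 and 2 to back IFE 1, and 143 and 218 from them to the library labelled back IFE 2. By this measure the library labelled back IFE 2 was about as close to each paw library as the paw libraries were to each other. The back libraries were 4-fold or more apart in 597 genes.

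Over the whole table, no gene passed the threshold of an adjusted p of 0.05 between paw and back IFE (edgeR quasi-likelihood test, 0 of 15151 genes, 0%). An unadjusted p under 0.05 was reached by 643 genes (4.24%), 305 of them higher (2.01%) and 338 lower (2.23%) in paw. The smallest adjusted p was 0.464, for Gng2, a G protein subunit. DESeq2 called 81 of the same genes (0.535%), 27 higher (0.178%) and 54 lower (0.356%) in paw, and limma-trend called 0 (714 at an unadjusted p under 0.05). The median log2 fold change over all genes was 0.01. In 40.4% of genes the paw and back libraries did not overlap, 20.2% with paw higher and 20.2% with paw lower, and counts of separated genes below are to be read against these shares. With 2 libraries a group, p-values for single genes named below are unadjusted unless said otherwise, and none of those genes passed the edgeR test over all 8 libraries.

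The Hox genes separated back IFE 1 from the other 3 libraries. Of 39 Hox genes, 28 had enough counts to be tested, and in 23 of these 28 (82.1%) the library labelled back IFE 2 lay nearer to the paw mean than to back IFE 1, against 58.8% of all genes tested. Paw was above both back libraries in 1 (Hoxc11) and below both in 8, and the summed level of the 28 genes was similar, 264 and 270 CPM in paw and 333 and 350 CPM in back. Their median log2 difference from paw was -1.15 against back IFE 1 and -0.40 against the library labelled back IFE 2, against 0.06 and -0.01 over all genes. The order of the libraries differed between the clusters and along some of them, and no test of position was run.

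Genes from the tail end of the HoxC cluster were at or near 0 in back IFE 1 and at like levels in the other 3 libraries. Hoxc10 (chromosome 15, 102966796 to 102971893, GRCm38) was at 62.3 and 73.4 against 0 and 83.9 CPM; with no count in back IFE 1, the paw mean was at least 417-fold higher than the 3 counts that a library at 0 allows. Hoxc12 was at 42.7 and 46.7 against 0 and 44.1 CPM (at least 275-fold). Hoxc13 was at 15.5 and 17.3 against 0 and 20.5 CPM (at least 101-fold). Hoxc9 was at 11.6 and 14.2 against 0.488 and 14.8 CPM. The Merkel libraries divided by their labels for Hoxc10, at 66.6 and 82.3 CPM in paw Merkel and 0.0761 and 0.0977 CPM in back Merkel libraries. Hoxc9 was at 7.38 and 30.9 CPM in paw Merkel and 0.0761 and 0 CPM in back Merkel libraries. Hoxc12 was at 34.1 and 2.40 CPM in paw Merkel and 0 and 0.293 CPM in back Merkel libraries. Hoxc13 was at 10.4 and 0.369 CPM in paw Merkel and 0 and 0.293 CPM in back Merkel libraries, so paw Merkel 2 was near the back level. Hoxc11 was low throughout, at 2.93 and 0.592 against 0 and 0.572 CPM. The long noncoding RNA Hotair, which is transcribed from between Hoxc11 and Hoxc12, followed the same order at 13.6 and 11.3 against 0 and 10.3 CPM.

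HoxB genes showed the opposite order, with back IFE 1 highest, in Hoxb8 and Hoxb9 of the tail end as well as toward the head end. Hoxb3 was at 6.44 and 2.47 against 48.6 and 3.21 CPM, and at 9.68 and 3.87 CPM in paw Merkel and 179 and 226 CPM in back Merkel libraries. Hoxb4 was at 2.04 and 0.197 against 27.95 and 0.153 CPM. Hoxb5 was at 2.28 and 0 against 10.9 and 2.56 CPM. The remaining tested genes of that cluster were lower but kept back IFE 1 on top. Hoxb2 was at 0.244 and 0 against 0.7598 and 0.191 CPM, Hoxb6 at 0.448 and 0.148 against 2.71 and 0.114 CPM. Hoxb7 was at 1.22 and 1.73 against 12.3 and 4.999 CPM. Hoxb8 was at 0 and 0 against 1.57 and 0.0763 CPM. Hoxb9 was at 3.504 and 1.53 against 14.1 and 0.191 CPM. In each of the 8 tested HoxB genes the highest of the 4 values was in back IFE 1. Exons of Hoxb3 and Hoxb2 overlap the antisense gene Hoxb3os over 52.9% and 27.3% of their bases, and the strand setting of the counts is not given in the sources used here, so their reads cannot be told apart from those of Hoxb3os.

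In the HoxA cluster the order differed between genes. Hoxa2 was at 3.38 and 5.68 against 41.5 and 3.28 CPM, Hoxa3 at 0 and 0.197 against 4.396 and 1.49 CPM. Hoxa4 was at 0.0815 and 0 against 3.799 and 0.4198 CPM. Hoxa5 was at 1.1001 and 1.73 against 10.3 and 2.06 CPM. Hoxa7 was at 8.15 and 13.4 against 55.4 and 14.6 CPM. All of these were highest in back IFE 1. Hoxa9, further toward the tail end, was at 16.2 and 25.9 against 1.14 and 35.6 CPM, with back IFE 1 lowest. Hoxa6 was at 2.53 and 0.395 against 1.19 and 0.0382 CPM. Hoxa10 was at 5.01 and 5.58 against 5.54 and 5.61 CPM, without such an order.

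The middle of the HoxC cluster was expressed in all 4 libraries. Hoxc8 was at 45.7 and 22.2 against 52.1 and 35.5 CPM, Hoxc5 at 9.45 and 11.6 against 12.5 and 10.1 CPM. Hoxc6 was at 8.56 and 12.3 against 3.69 and 20.9 CPM. Hoxc4 was the member whose back libraries were alike and above paw, at 6.93 and 5.77 against 19.4 and 22.9 CPM (log2 fold change -1.74 ± 0.93 SE, edgeR unadjusted p = 0.0871). HoxD genes were low: Hoxd4 was at 0.326 and 0.987 against 0.0543 and 1.603 CPM, Hoxd8 at 4.73 and 3.26 against 2.497 and 18.1 CPM. Hoxd9 was at 0.122 and 2.57 against 0 and 2.79 CPM. The 11 Hox genes below the filter had at most 24 counts in all 4 libraries together, and Hoxa11, Hoxa13 and Hoxd12, of the tail ends that pattern the limb, had 0.

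**Figure D1:**
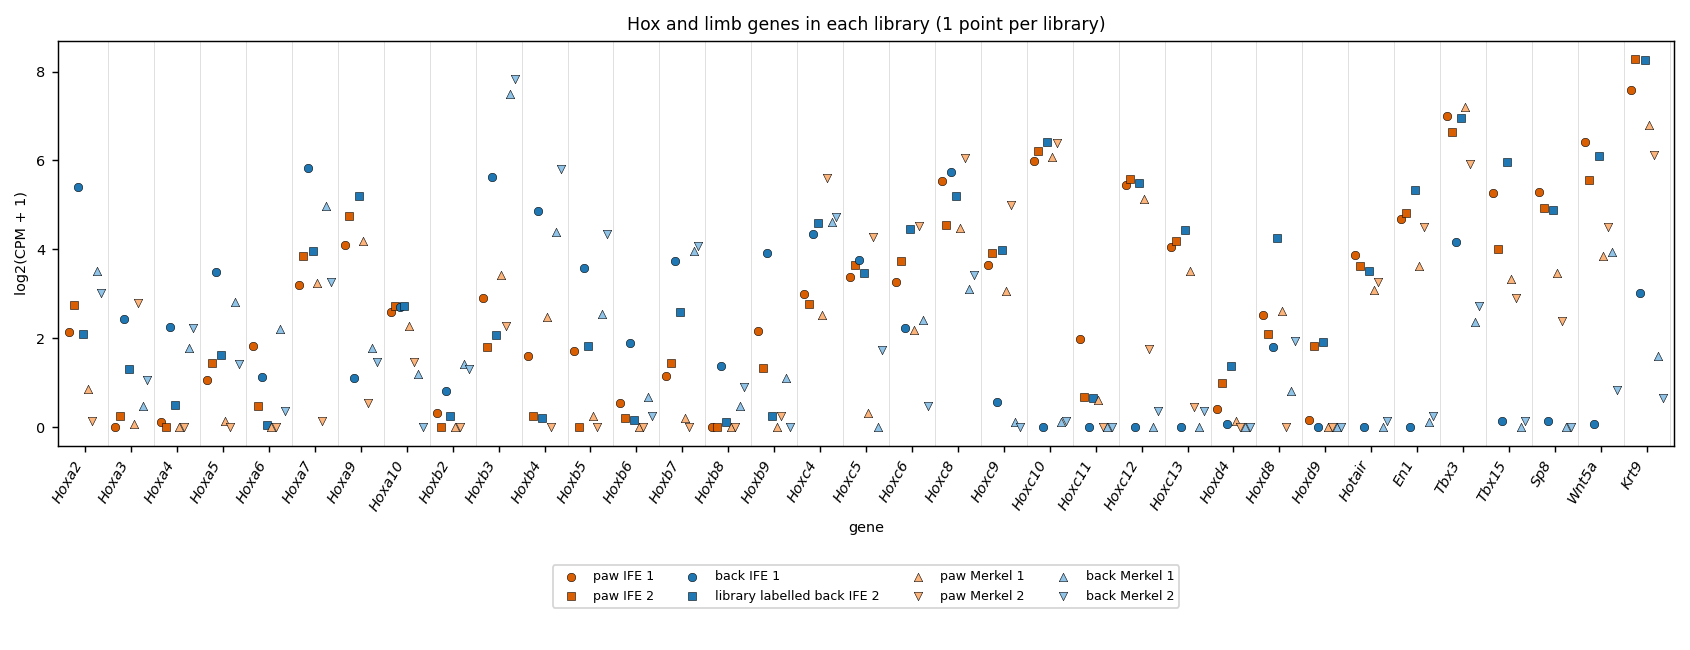
Level of each tested Hox gene, of Hotair, of 5 limb patterning genes and of Krt9, as log2(CPM + 1), with 1 point per library: orange for paw, blue for back, circles and squares for IFE libraries 1 and 2, pale triangles for Merkel libraries. For Hoxc10, Hoxc12, En1 and Krt9 the blue square (library labelled back IFE 2) sits with the orange points. The blue circle (back IFE 1) sits with the pale blue triangles near the bottom for Hoxc10, Hoxc12 and En1. For Krt9 it lies above those triangles and below the orange points. For Hoxb3 and Hoxb4 the blue circle is the highest IFE point.

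Limb patterning genes repeated the split. Of 46 listed, 28 were tested, and in 24 of them (85.7%) the library labelled back IFE 2 lay nearer to the paw mean than to back IFE 1. Paw was above both back libraries in 7 of 28 and below both in 3. The median log2 difference of the list was 1.45 against back IFE 1 and 0.00 against the library labelled back IFE 2. Genes of the ventral and distal limb, with Tbx15, are given first, and this order is not a ranking. En1 (chromosome 1, 120602418 to 120607992), the ventral limb factor, was at 24.7 and 27.3 against 0 and 39.3 CPM (at least 159.6-fold above back IFE 1). The same gene was at 11.3 and 21.7 CPM in paw Merkel and 0.0761 and 0.195 CPM in back Merkel libraries. Sp8, a factor of the apical ridge at the tip of the limb bud, was at 38.2 and 29.3 against 0.109 and 28.7 CPM, and its relative Sp9 at 4.03 and 5.58 against 0 and 2.52 CPM. Tbx3, a limb and digit factor, was at 126 and 99.2 against 16.8 and 123 CPM. Tbx15, a skin patterning factor, was at 37.3 and 15.1 against 0.109 and 61.3 CPM. In all 5 the library labelled back IFE 2 was closer to the paw mean than back IFE 1 was.

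Among homeobox factors of the list, Dlx1 was at 39.4 and 32.5 against 0.109 and 46.8 CPM, Dlx2 at 2.16 and 3.36 against 0 and 2.48 CPM. Dlx3 was at 13.8 and 10.96 against 5.16 and 16.1 CPM. Dlx5 was at 8.72 and 6.76 against 1.25 and 4.05 CPM, Emx2 at 20.2 and 21.8 against 0 and 9.46 CPM. Msx2 was at 3.99 and 3.36 against 0.706 and 5.04 CPM. These 6 were lowest in back IFE 1. Cofactors of Hox proteins varied in their gaps. Pbx3 was at 39.03 and 21.96 against 26.4 and 30.6 CPM. Meis1 was at 165 and 119.5 against 48.4 and 115 CPM, Meis2 at 121 and 91.6 against 73.97 and 124 CPM. Meis3, with the widest gap of these to back IFE 1, was at 8.84 and 2.91 against 0.3799 and 1.22 CPM. The Iroquois factor Irx2 was the highest in back IFE 1, at 28.03 and 29.8 against 102 and 27.1 CPM, and Irx1 was above paw in both back libraries, at 2.85 and 2.32 against 17.3 and 9.197 CPM. Irx3 was at 1.83 and 1.73 against 1.63 and 1.83 CPM, Irx4 at 70.7 and 45.8 against 24.6 and 56.8 CPM. Irx5 was at 25.9 and 19.1 against 8.63 and 21.4 CPM. Wnt7a, the dorsal signal of the limb bud, was above paw in both back libraries at 9.697 and 15.5 against 34.7 and 18.8 CPM, and its target Lmx1b was at 0.244 and 0 against 2.33 and 0.458 CPM. Tbx2 was at 1.22 and 3.45 against 2.23 and 3.05 CPM, Pitx1 at 0.326 and 0 against 2.497 and 0 CPM, Prrx1 at 4.36 and 2.17 against 0 and 2.44 CPM, Sall3 at 0 and 2.17 against 0 and 0 CPM. Sall4 was at 0 and 0 against 0.0543 and 0 CPM.

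Genes that set the back libraries most apart, 10 in each direction at 10 CPM or more, were mostly nearer to paw in the library labelled back IFE 2. All 10 that were higher in that library were nearer the paw mean there: Hoxc10, Hoxc12, En1, Tbx15 and Dlx1 as above, with Wnt5a, Otx1, Fmod, Ror2 and Gria3. Wnt5a, a ligand of limb outgrowth, was at 84.6 and 45.8 against 0.0543 and 67.2 CPM, and its receptor Ror2 at 14.1 and 13.4 against 0 and 30.99 CPM. Otx1 was at 39.3 and 21.5 against 0 and 32.9 CPM, Fmod, a collagen-binding proteoglycan, at 63.03 and 37.8 against 0.109 and 64.5 CPM. Gria3 was at 24.7 and 15.7 against 0.0543 and 30.6 CPM. The 10 that were higher in back IFE 1 were Prss33, Ebf2, Ablim3, Vmn2r83, Hoxb4, Csmd2, Arid3c, B3gnt9, Hoxb9 and Cfap57, and for 8 of them the library labelled back IFE 2 was the nearer one. Krt9, the keratin of palm and sole (chromosome 11, 100186781 to 100193246), was at 191 and 309 against 7.11 and 307 CPM. In Merkel libraries it was at 110.4 and 69.1 CPM in paw Merkel and 2.05 and 0.586 CPM in back Merkel libraries, so 7 libraries followed their labelled site and the library labelled back IFE 2 held the paw level.

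Against back IFE 1 alone, without the library labelled back IFE 2 and over the same genes, 15 of 15151 genes passed (0.099%; edgeR), 9 higher in paw (0.0594%) and 6 lower (0.0396%). This fit has 1 back library, which is assumed to vary like the other groups. The library was left out because of its Hox and limb levels, so Hoxc10, which is among the 9, restates the values above and is no independent result. Sox11, a factor of embryonic progenitors, was at 108 and 88.1 against 0.651 and 119 CPM (log2 fold change 7.22 ± 0.75 SE, edgeR adjusted p = 0.00749). Krt7, a keratin of simple and glandular epithelium, was at 91.9 and 136 against 3.53 and 105 CPM (log2 fold change 5.01 ± 0.598 SE, edgeR adjusted p = 0.0168), and the endothelial and heart development gene Heg1 at 24.8 and 28.1 against 0.977 and 13.2 CPM (log2 fold change 4.75 ± 0.59 SE, edgeR adjusted p = 0.01701). Cytoskeletal genes of growing neurites were in the set too: Map1b was at 391 and 315 against 31.5 and 399 CPM (log2 fold change 3.48 ± 0.48 SE, edgeR adjusted p = 0.0341). Dpysl3 was at 84.5 and 55.5 against 3.31 and 62.97 CPM (log2 fold change 4.399 ± 0.54 SE, edgeR adjusted p = 0.0168). The transcription factor Zfhx3 was at 259 and 149.5 against 18.2 and 167 CPM. Camk2n1 was at 22.1 and 14.1 against 0.109 and 7.59 CPM, and the growth factor Igf1 was low, at 4.44 and 3.75 against 0 and 5.69 CPM.

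The 6 lower genes were Gng2, Cntnap2, Cacna2d2, Rtn1, Cd74 and H2-Ab1. Gng2 was at 1.996 and 1.04 against 39.1 and 10.8 CPM (log2 fold change -4.67 ± 0.47 SE, edgeR adjusted p = 0.00749), the same direction against both back libraries. Cntnap2, Cacna2d2 and Rtn1, genes of neuronal membranes, were at 0 and 0 against 7.38 and 0.687 CPM, at 0.163 and 0.592 against 18.8 and 0.458 CPM and at 0.204 and 0.0493 against 5.86 and 1.53 CPM. Gng2 and these genes were higher in every Merkel library than in any IFE library. In paw Merkel and then back Merkel libraries Gng2 was at 572, 422, 938 and 773 CPM. In that order Cntnap2 was at 29.7, 27.0, 33.8 and 24.4 CPM. Cacna2d2 was at 49.1, 69.6, 57.7 and 88.8 CPM and Rtn1 at 37.1, 29.9, 78.6 and 119 CPM. The part of Merkel RNA in these IFE values was not tested. Of the 15 genes, 12 had the library labelled back IFE 2 nearer to the paw mean than to back IFE 1, against 58.8% of all genes tested. In 9 it was within 2-fold of the paw mean, and 9 had the same direction between the paw and back Merkel libraries. No share over all genes was worked out for these last counts. The genes were chosen for their distance from back IFE 1, so all of these counts are a description. When the filter on low counts was repeated on the 7 libraries left, 67 of 16325 genes passed (0.41%), 37 higher (0.227%) and 30 lower (0.184%), and these held all 15. DESeq2 without that library called 347 (2.29%), and limma-trend 5. Without back IFE 1 instead, 0 genes passed the edgeR test (234 at an unadjusted p under 0.05).

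At 8-fold or more from back IFE 1 in each paw library, 139 genes were higher in paw, and the library labelled back IFE 2 was within 2-fold of the paw mean for 96 of them. Of 165 genes lower in paw by as much, it was within 2-fold for 36. The genes were chosen for their distance from back IFE 1, so these counts are a description. Against the library labelled back IFE 2, 8 genes were higher and 11 lower by 8-fold or more. In the plot of the site difference against each back library, genes near a vertical value of 0 differ from paw in back IFE 1 alone, and genes near the dashed line differ from paw in both back libraries alike.

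**Figure D2:**
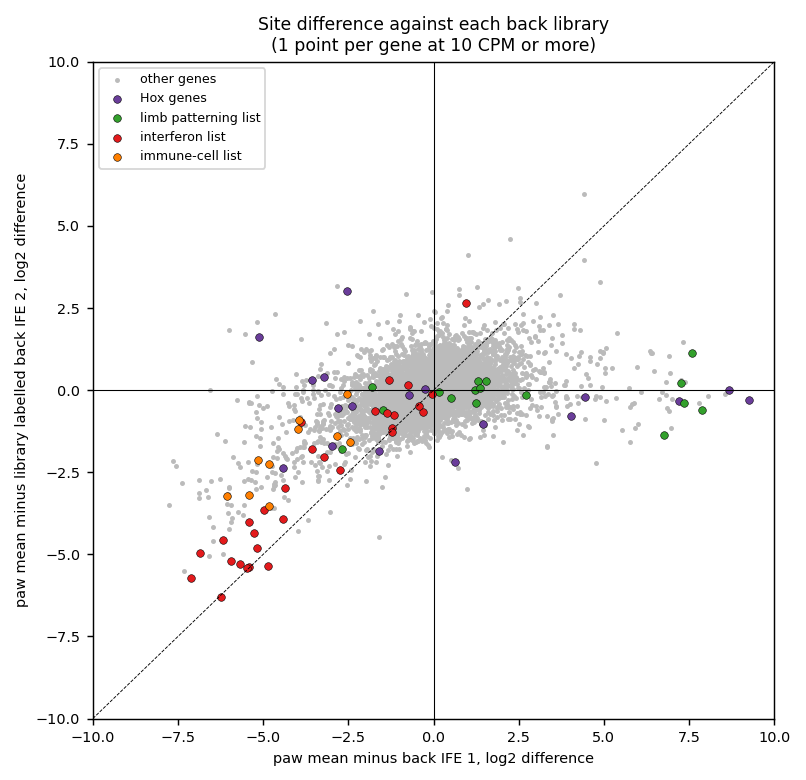
Each point is 1 gene with 10 CPM or more; the horizontal axis gives its log2 difference of the paw mean minus back IFE 1, the vertical axis that of the paw mean minus the library labelled back IFE 2, and both axes share the paw libraries. Purple Hox and green limb points spread along the horizontal axis near a vertical value of 0, while red interferon points lie near the dashed line of equal differences, many of them below -3 on both axes.

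Few genes were 8-fold or more apart between each paw library and each back library (log2 CPM with a prior count of 2) with 10 CPM or more in a paw library or in both back libraries: 10 were lower in paw and 2 higher. Of the 10, 8 are induced by interferon: Rsad2, Mx1, Oasl2, Ifi44, Ifit1, Ifit1bl1, Igtp and Iigp1. Ptprc, described with the immune markers, was also among them. Rsad2 (viperin, an antiviral enzyme; chromosome 12, 26442746 to 26456452) was at 1.14 and 0.543 against 26.1 and 37.2 CPM (log2 fold change -5.22 ± 1.397 SE, edgeR unadjusted p = 0.00321). Mx1, a GTPase that blocks viral replication, was at 2.08 and 0.7402 against 52.7 and 27.6 CPM (log2 fold change -4.82 ± 1.33 SE, edgeR unadjusted p = 0.00387). Both back libraries were above both paw libraries, by more than the back libraries differed from each other. Iigp1 and Igtp, GTPases that act against intracellular parasites, were at 0.0815 and 0.247 against 19.8 and 20.6 CPM (log2 fold change -6.903 ± 1.68 SE, edgeR unadjusted p = 0.00201) and at 0 and 0.839 against 14.3 and 13.7 CPM (log2 fold change -5.06 ± 2.13 SE, edgeR unadjusted p = 0.0382).

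Sensors and effectors of viral RNA followed. Oasl2 was at 3.34 and 0.493 against 61.9 and 59.6 CPM (log2 fold change -4.98 ± 1.43 SE, edgeR unadjusted p = 0.00513), and Oas3, which makes the second messenger that activates RNase L, at 0.244 and 0 against 22.7 and 5.99 CPM (log2 fold change -6.76 ± 1.93 SE, edgeR unadjusted p = 0.00477). Ifit1 and Ifit3, which bind viral RNA ends, were at 1.91 and 0.0493 against 28.98 and 22.3 CPM and at 0.204 and 0 against 25.8 and 9.81 CPM. Ifit1bl1 was at 0.856 and 0 against 20.1 and 12.1 CPM. Ifi44 was at 0.652 and 0.888 against 31.4 and 24.3 CPM. Apart from Oas3 and Ifit3, these genes were chosen for being 8-fold or more lower in paw than in each back library. Their levels in the library labelled back IFE 2 therefore follow from that choice and are no result about that library. Rsad2 and Mx1 were low in Merkel libraries from either site: Rsad2 was at 1.198 and 0.0922 CPM in paw Merkel and 0.0761 and 0 CPM in back Merkel libraries, and Mx1 at 1.15 and 0.0922 CPM in paw Merkel and 0 and 0.0977 CPM in back Merkel libraries. Igtp was at 0.431 and 25.6 CPM in paw Merkel and 0 and 0 CPM in back Merkel libraries, so paw Merkel 2 was above both back IFE libraries for that gene.

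A list of 50 interferon-induced genes was drawn up after these values were seen, and it is described without a test. Of 47 with enough counts, 39 were lower in both paw libraries than in both back libraries (83.0%, against 20.2% of all genes), 1 was higher and 7 overlapped. An unadjusted p under 0.05 was reached by 15. The median log2 fold change was -3.64, or -3.66 with the 3 genes that had no paw counts set to the floor, and the median difference was -3.43 against back IFE 1 and -3.39 against the library labelled back IFE 2. Genes that passed the filter through the back libraries alone had to be lower in paw, so the count is a description of the members and not support for a difference. The summed level was 217 and 416 CPM in paw and 909 and 637 CPM in back. DESeq2 called 8 of the 47 genes, all lower in paw, where it called 0.356% of all genes as lower. They were Ddx60, Ifi44, Ifit3, Iigp1, Mx1, Oas3, Oasl2 and Rsad2 (DESeq2 adjusted p = 0.001002 for Iigp1 and DESeq2 adjusted p = 0.00266 for Rsad2). As the list was drawn from these values, this count too is a description of the members and not support.

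The upstream factors of the pathway had smaller gaps or none. Irf9 was at 10.7 and 19.7 against 15.03 and 15.9 CPM, Stat2 at 15.2 and 20.1 against 21.7 and 27.7 CPM. Irf1 was higher in paw, at 53.4 and 145 against 45.3 and 13.8 CPM, the only listed gene whose paw libraries lay above both back libraries. The chemokine Cxcl10 was at 14.1 and 65.6 against 41.2 and 42.7 CPM, with paw IFE 2 the highest of the 4. Irf7, an interferon-induced amplifier of the response, was at 0.0815 and 3.55 against 12.3 and 1.53 CPM, with overlap between the sites.

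**Figure D3:**
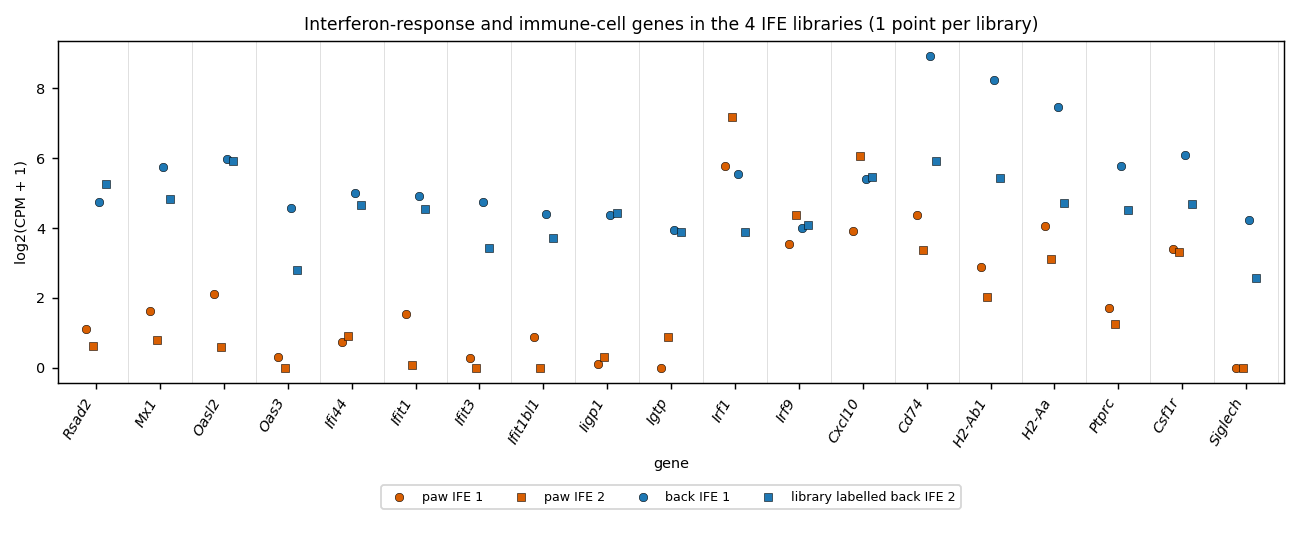
Levels of 13 interferon-response genes and 6 genes of immune cells in the 4 IFE libraries, as log2(CPM + 1), with 1 point per library; orange marks paw, blue marks back, circles are library 1 and squares library 2. From Rsad2 to Igtp both blue points lie above both orange points, Irf9 and Cxcl10 overlap, and for Cd74, H2-Ab1 and H2-Aa the blue square lies between the blue circle and the orange points.

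Most tested markers of immune cells were also at lower levels in both paw libraries, and none of them passed the edgeR test over all 8 libraries. Of 17 tested genes of a list for Langerhans cells and other leukocytes, 12 were lower in both paw libraries than in both back libraries (against 20.2% of all genes) and 0 were higher, with a median log2 fold change of -3.10. The median difference was -4.12 against back IFE 1 and -1.31 against the library labelled back IFE 2. As for the interferon list, members that passed the filter through the back libraries alone had to be lower in paw, so the count is a description. The summed level was 75.5 and 87.8 CPM in paw, 1353 CPM in back IFE 1 and 233 CPM in the library labelled back IFE 2. H2-Ab1 and H2-Aa, chains of the class II molecule that presents antigen, were at 6.397 and 3.06 against 304 and 42.4 CPM (log2 fold change -5.19 ± 0.97 SE, edgeR unadjusted p = 0.000219) and at 15.5 and 7.698 against 175 and 25.2 CPM. Cd74, the invariant chain of class II, was at 19.7 and 9.38 against 483 and 59.6 CPM (log2 fold change -4.22 ± 0.96 SE, edgeR unadjusted p = 0.00103). Ptprc, the CD45 of all leukocytes, was at 2.28 and 1.38 against 53.6 and 21.9 CPM, and the macrophage receptor Csf1r at 9.57 and 8.93 against 66.6 and 24.8 CPM.

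Of the defining markers of single cell types, Cd207 of Langerhans cells was at 0 and 2.07 against 8.41 and 0.954 CPM and overlapped. Cd3e of T cells was at 1.22 and 0.444 against 2.66 and 2.02 CPM, and Siglech of plasmacytoid dendritic cells, which was named after its values were seen, at 0 and 0 against 17.7 and 4.92 CPM (at least 169-fold lower in paw than in back). Prkcb, a kinase of lymphocytes and neurons, was at 15.8 and 5.77 against 145 and 39.5 CPM (log2 fold change -3.09 ± 0.69 SE, edgeR unadjusted p = 0.000913). The part of immune cells in the interferon result was not tested. The marker sum differed 5.81-fold between the back libraries, and the interferon sum 1.43-fold. The interferon list was drawn up after its values in both back libraries were seen, so these ratios cannot be set against each other. In bulk libraries fewer cells of a type and less RNA per cell cannot be told apart.

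The 2 genes that were higher in paw by the same limits of 8-fold and 10 CPM were Il10, an anti-inflammatory cytokine, and Ggn. Il10 was at 1.14 and 11.5 against 0 and 0 CPM (at least 94.4-fold over the floor of the back group). Ggn was at 3.22 and 14.5 against 0 and 0 CPM. Both were highest in paw IFE 2.

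In the basal layer list all 25 genes were tested, and 6 were higher and 10 lower in both paw libraries than in both back libraries, with a median log2 fold change of -0.26 (-0.085 against back IFE 1 and -0.15 against the library labelled back IFE 2). Lama5, a laminin chain of the basement membrane, was at 354 and 249 against 161 and 117 CPM (log2 fold change 1.12 ± 0.42 SE, edgeR unadjusted p = 0.0229). Sfn was at 94.1 and 108 against 228 and 151 CPM. Krt14 was lower in both paw libraries (log2 fold change -0.803 ± 0.404 SE, edgeR unadjusted p = 0.0717), and Epcam, which entered the sort, was at 182 and 209.6 against 344 and 349.9 CPM (log2 fold change -0.83 ± 0.29 SE, edgeR unadjusted p = 0.014999). Of 20 genes of early differentiation, 4 were higher and 2 lower. Ovol1, a transcription factor that takes keratinocytes out of the cell cycle, was at 16.8 and 51.7 against 3.36 and 7.59 CPM (log2 fold change 2.64 ± 0.78 SE, edgeR unadjusted p = 0.00606). Notch3 was at 52.4 and 73.2 against 32.998 and 19.8 CPM. Krt1, the partner of Krt10, was at 3307 and 4929 against 3970.3 and 2199 CPM and overlapped.

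Terminal differentiation genes overlapped between the sites in most cases. Of 28 tested, 2 were higher and 9 lower in both paw libraries and 17 overlapped. Their summed level was 581 and 1075 CPM in paw and 1011 and 693 CPM in back, and the median log2 difference was -1.06 against back IFE 1 and -0.37 against the library labelled back IFE 2. Ivl (involucrin, a precursor of the cornified envelope) was at 0 and 0.296 against 20.2 and 2.98 CPM (log2 fold change -6.26 ± 2.05 SE, edgeR unadjusted p = 0.0108). Klk7, a protease of desquamation, was at 5.34 and 11.7 against 67.9 and 13.5 CPM (log2 fold change -2.25 ± 0.96 SE, edgeR unadjusted p = 0.03898), and the transglutaminase Tgm5 at 2.97 and 4.29 against 58.9 and 3.85 CPM. The 2 higher genes were Krt2, a keratin of the upper suprabasal layers, at 154 and 213 against 2.06 and 82.9 CPM, and Tgm1, the main transglutaminase of the envelope, at 21.9 and 30.6 against 8.85 and 10.1 CPM. Of 24 tested barrier lipid genes, 6 were higher and 3 lower; Ugcg, which makes glucosylceramide, was at 143 and 201 against 67.4 and 115 CPM (log2 fold change 0.91 ± 0.38 SE, edgeR unadjusted p = 0.0331). Degs2 was at 17.3 and 11.3 against 5.699 and 5.99 CPM.

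Keratins of thick or stressed skin did not move together. Beside Krt9, Krt6a was at 83.5 and 44.3 against 9.93 and 41.98 CPM, the only one of 10 that was higher in both paw libraries. Krt16 was at 28.5 and 62.9 against 52.97 and 24.8 CPM. Krt17, a keratin of follicles and stressed epidermis, was at 102 and 145 against 524 and 130.3 CPM, high in back IFE 1 alone. Krt79, of the follicle opening, was at 3.42 and 5.13 against 33.6 and 9.24 CPM (log2 fold change -2.32 ± 0.92 SE, edgeR unadjusted p = 0.0278).

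Several follicle and hedgehog genes were highest in back IFE 1. Postn, a matrix protein that marks epithelium around the follicle, was at 92.4 and 240.3 against 1492 and 249 CPM. Hedgehog signalling, by which Shh from the follicle placode acts on its receptor, raises the receptor gene Ptch1 as its own target. Ptch1 was at 265 and 296 against 1155 and 267 CPM (log2 fold change -1.34 ± 0.55 SE, edgeR unadjusted p = 0.0337). The library labelled back IFE 2 had paw levels of Ptch1 and Postn. Gas1, a coreceptor for Shh, was lower in both paw libraries than in both back libraries, at 223 and 146 against 509.6 and 437 CPM (log2 fold change -1.36 ± 0.46 SE, edgeR unadjusted p = 0.0132), as was Sox21, a follicle factor, at 53.2 and 55.1 against 132 and 94.5 CPM (log2 fold change -1.07 ± 0.3999 SE, edgeR unadjusted p = 0.0216). Hr, the hairless corepressor, was higher in paw, at 238 and 120.3 against 38.2 and 59.2 CPM (log2 fold change 1.88 ± 0.83 SE, edgeR unadjusted p = 0.0438). Of 27 tested follicle genes 7 were higher and 5 lower, and of 17 hedgehog genes 5 were higher and 3 lower. Exons of Gas1 and Sox21 overlap opposite-strand genes over 19.9% and 18.8% of their bases.

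**Figure D4:**
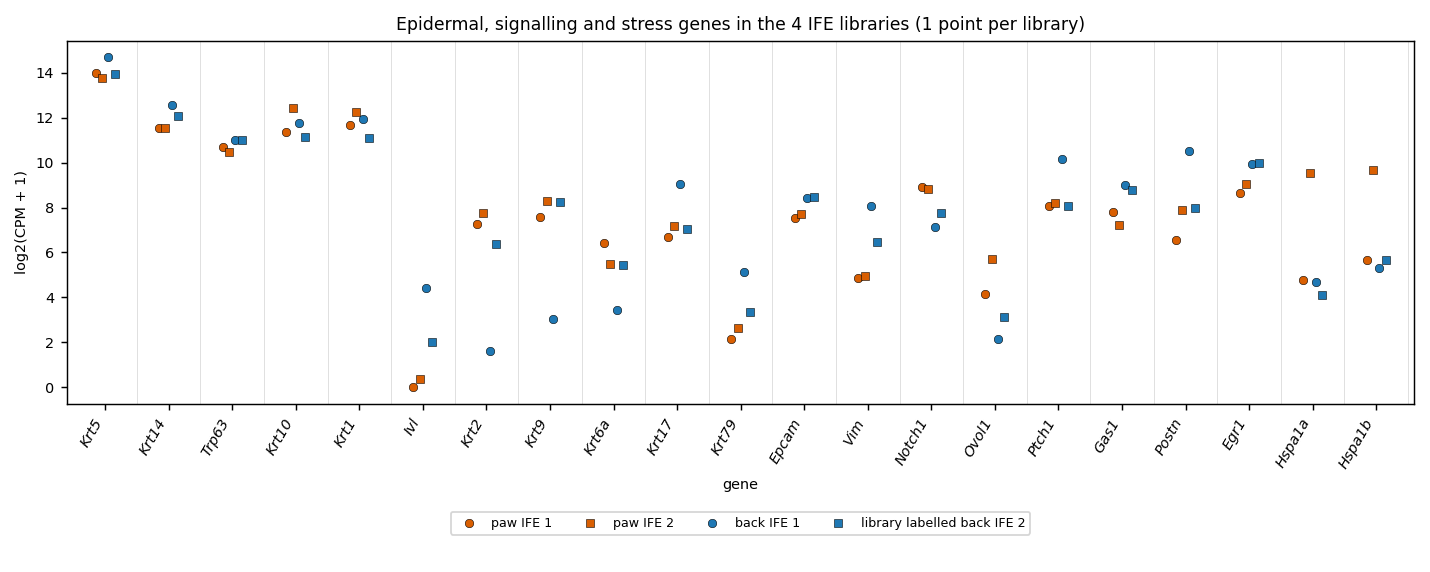
Levels of 21 epidermal, signalling and stress genes in the 4 IFE libraries, as log2(CPM + 1), with 1 point per library; orange marks paw, blue marks back, circles are library 1 and squares library 2. Krt5, Krt14 and Trp63 are high in all 4, Notch1 is higher and Epcam, Vim and Gas1 lower in both paw libraries, Krt9, Ptch1 and Postn set back IFE 1 apart, and Hspa1a and Hspa1b set paw IFE 2 apart.

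Several genes of the Notch and growth factor pathways were higher in both paw libraries than in both back libraries. Notch signalling drives basal keratinocytes into differentiation, and 7 of its 19 tested genes were higher and 4 lower in both paw libraries, with a median log2 fold change of 0.66 (0.75 against back IFE 1 and 0.25 against the library labelled back IFE 2). The receptor Notch1 (chromosome 2, 26457903 to 26516663) was at 479.6 and 452 against 139.6 and 218 CPM (log2 fold change 1.38 ± 0.42 SE, edgeR unadjusted p = 0.00706). Notch2 was at 222 and 283 against 159 and 161 CPM. Rbpj, the DNA-binding partner of the Notch intracellular domain, was at 68.6 and 53.5 against 36.1 and 31.6 CPM, and the target Hes1 at 17.4 and 29.6 against 9.28 and 10.6 CPM. The ligand Jag1 overlapped, at 145 and 236 against 119.6 and 155 CPM, and Dll1 was lower in paw, at 23.5 and 31.9 against 50.4 and 43.05 CPM. In the FGF and EGF list 11 of 26 tested genes were higher and 3 lower, with a median log2 fold change of 0.72 (0.87 against back IFE 1 and 0.57 against the library labelled back IFE 2). The receptor Fgfr1 was at 85.8 and 58.6 against 7.92 and 48.8 CPM and the receptor Erbb2 at 259 and 210.2 against 129 and 145 CPM. Ligands were low, with Fgf18 at 5.95 and 6.27 against 0 and 1.79 CPM, Nrg1 at 20.3 and 30.8 against 1.95 and 10.9 CPM. Epgn was at 3.91 and 51.3 against 3.202 and 2.099 CPM, high in paw IFE 2 alone.

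BMP and WNT lists differed from back IFE 1 more than from the library labelled back IFE 2. Of 27 tested BMP genes 6 were higher and 1 lower, and the median log2 difference was 0.91 and -0.02 against the respective back libraries. Bmp3, a BMP antagonist, was at 0.978 and 6.51 against 50.4 and 3.63 CPM, and the inhibitor Smad7 at 26.2 and 48.4 against 1.68 and 15.95 CPM. Of 40 WNT genes 3 were higher and 8 lower; the ligand Wnt10a was at 16.2 and 6.56 against 38.4 and 29.9 CPM and the factor Tcf7 at 30.4 and 9.03 against 4.18 and 10.2 CPM. In the EDA and NF-kappaB list, whose ligand and receptor set up hair and sweat gland placodes, 5 of 16 were higher and 1 lower, with Nfkb2 at 12.2 and 45.6 against 3.91 and 5.88 CPM. Rel was at 174 and 577 against 129.8 and 163 CPM. Both were highest in paw IFE 2. Of 10 genes of the sweat gland list 2 were higher and 1 lower.

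The polycomb list, of genes that act on repressive histone marks, was nearly even: of 32 genes 3 were higher and 3 lower, with a median log2 fold change of 0.01 (0.16 and -0.067 against the respective back libraries). Bmi1 was at 66.98 and 49.1 against 142 and 63.9 CPM, and the demethylase Kdm6b at 83.9 and 157 against 68.1 and 63.2 CPM. Of 37 cell cycle genes, 13 were lower in both paw libraries than in both back libraries and 2 higher, with a median log2 fold change of -0.19 (-0.23 and -0.18 likewise). Cenpe, a motor of the kinetochore, was at 463 and 523 against 634 and 1010.5 CPM (log2 fold change -0.74 ± 0.33 SE, edgeR unadjusted p = 0.0454), and Gmnn, an inhibitor of DNA replication licensing, at 33.2 and 18.8 against 79.3 and 53.9 CPM. Of 22 matrix genes 6 were higher and 2 lower, with Col5a1 at 178 and 109 against 28.98 and 107 CPM. Col1a1 was at 13.4 and 15.8 against 2.28 and 3.47 CPM.

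**Figure D5:**
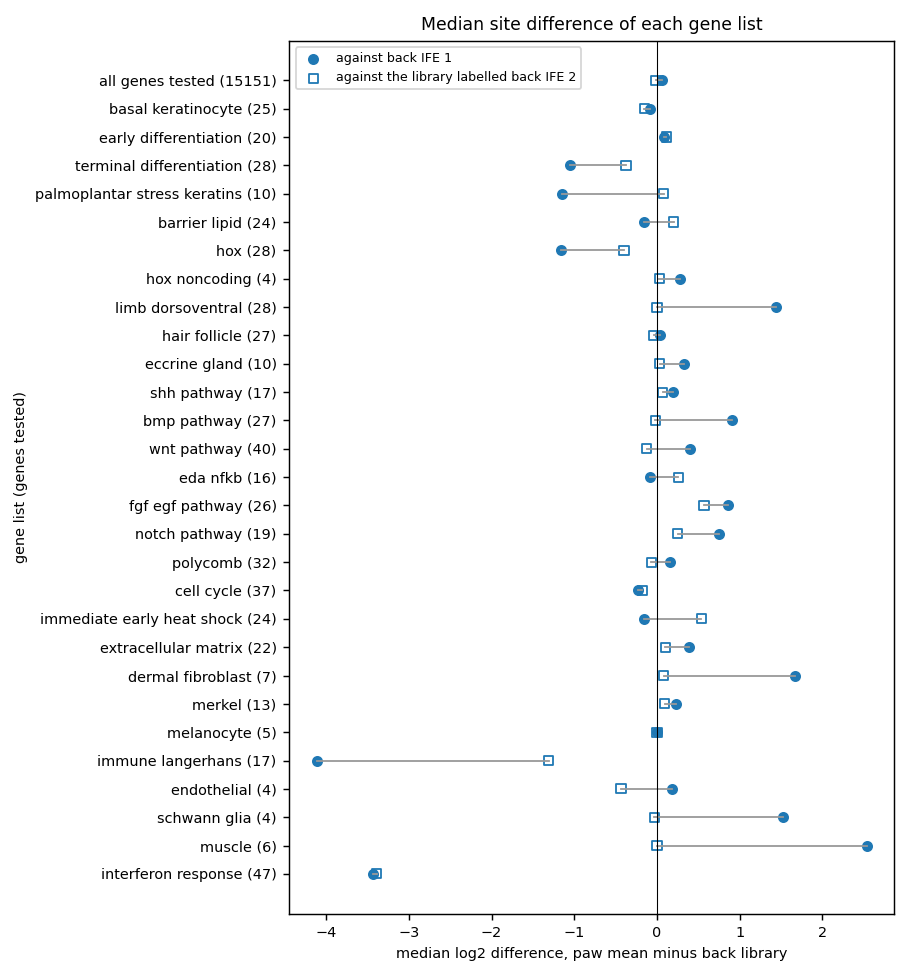
Median log2 difference of the paw mean minus back IFE 1 (filled circles) and minus the library labelled back IFE 2 (open squares) for all tested genes and for the gene lists, with the number of tested genes in brackets. The erythroid list is not drawn. The interferon list has both marks near -3.4, the limb list and the Hox list have the open square nearer 0, and all genes have both marks near 0.

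Single genes, most of them outside the gene lists, separated both sites with small unadjusted p and were named after their values were seen. Vim is on the fibroblast list and Syp on the Merkel list. The noncoding RNA Neat1, the scaffold of paraspeckles, was at 3659 and 3531 against 671 and 1459 CPM (log2 fold change 1.76 ± 0.62 SE, edgeR unadjusted p = 0.0158). Vim, an intermediate filament of mesenchymal and immune cells and on the fibroblast list, was at 27.95 and 29.7 against 267 and 88.6 CPM (log2 fold change -2.63 ± 0.56 SE, edgeR unadjusted p = 0.000626; DESeq2 adjusted p = 0.00398). Fth1, the ferritin heavy chain, was at 301 and 343 against 694 and 736 CPM (log2 fold change -1.15 ± 0.29 SE, edgeR unadjusted p = 0.00238). Low genes of this kind lay on either side. Kif5a was at 2.32 and 5.68 against 0.109 and 0.229 CPM, Cldn6 at 3.95 and 1.58 against 0.0543 and 0 CPM and Syp at 3.54 and 1.04 against 0 and 0.153 CPM, all higher in paw. Cryba2, at 0.0815 and 0.197 against 9.82 and 2.18 CPM, and Fbxl16, at 0.367 and 0.642 against 2.93 and 2.14 CPM, were lower in both paw libraries. In paw Merkel and then back Merkel libraries Kif5a was at 47.7, 153, 228 and 161 CPM. In that order Cldn6 was at 72.6, 35.03, 32.5 and 49.7 CPM. Cryba2 was at 23.5, 57.4, 9.89 and 15.8 CPM and Fbxl16 at 178, 386, 372 and 344 CPM. The part of Merkel RNA in the IFE values of these genes was not tested.

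The median difference between paw and back libraries varied with transcript length. Libraries of the same site were not compared in this way, so a difference between single libraries cannot be told apart from one between sites. Among 8948 genes at 10 CPM or more in the mean of either site, 98.2% had a single annotated length, and these were ranked by the summed length of their exons and cut into 4 sets of like size. The median log2 fold change was -0.30 in the shortest set and 0.13 in the longest. The same medians were -0.36 and 0.22 against back IFE 1 and -0.25 and 0.05 against the library labelled back IFE 2. Fth1 is a short and Neat1 a long transcript, and the part of length in the site differences of these genes was not tested.

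Stress genes set paw IFE 2 apart from the other 3 libraries. The heat shock genes Hspa1a and Hspa1b were at 26.5 and 734 against 25.02 and 15.95 CPM and at 50.5 and 816 against 38.6 and 50.1 CPM (log2 fold change 3.29 ± 0.94 SE, edgeR unadjusted p = 0.00478). Tnfaip3, a feedback inhibitor of NF-kappaB, was at 42.1 and 439.5 against 34.95 and 36.6 CPM. Egr1, an immediate early factor, went the other way and was lower in both paw libraries, at 395 and 525 against 977 and 1018 CPM (log2 fold change -1.12 ± 0.299 SE, edgeR unadjusted p = 0.00323). Of the 24 tested genes of this list 3 were higher and 4 lower. Which dissociation each library went through beyond the shared protocol is not given in the labels, and its part was not tested.

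Marker lists of other cell types, beside the immune list, were given by their summed levels. The summed level of 13 Merkel genes was 20.4 and 20.7 CPM in paw and 11.4 and 11.3 CPM in back, against 3970 to 6805 CPM in the Merkel libraries, with Piezo2, the touch channel, at 12.96 and 10.8 against 7.06 and 6.95 CPM. The 5 tested melanocyte genes summed to 8.47 to 16.6 CPM and the 4 endothelial genes to 2.69 to 8.93 CPM. The 7 fibroblast genes summed to 553 and 507 CPM in paw and 396 and 615 CPM in back, the 6 muscle genes to 22.8 to 36.5 CPM with Ttn at 19.2 and 10.1 against 0.923 and 4.27 CPM. Tnni2 was at 1.79 and 6.27 against 20.6 and 5.305 CPM. The 4 glial genes summed to 25.9 to 56.5 CPM with Mbp at 51.7 and 50.3 against 24.7 and 26.3 CPM. Alas2, the 1 tested erythroid gene, was at 21.1 and 16.3 against 15.8 and 19.3 CPM.

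The site difference in IFE was set against that in Merkel cells as an interaction in the same fit. No gene passed (edgeR, 0 of 15151, 0%; 1365 genes, 9.01%, at an unadjusted p under 0.05), while DESeq2 called 272 and limma-trend 0. Between the paw and back Merkel libraries themselves 28 genes passed (0.185%), 27 higher (0.178%) and 1 lower (0.0066%) in paw, and none of them was among the 15 of paw IFE against back IFE 1. The smallest interaction p-values belonged to genes that differed in Merkel cells. Antxr1, an anthrax toxin receptor that binds collagen, was at 407 and 339 against 557 and 549 CPM of the IFE libraries and at 173 and 135 CPM in paw Merkel and 13.6 and 6.74 CPM in back Merkel libraries; the difference of log2 fold changes was -4.48 (edgeR adjusted p = 0.06005, unadjusted p = 3.96e-06). For Anln, a scaffold of the cleavage furrow, it was -3.36 (edgeR adjusted p = 0.0789, unadjusted p = 1.39e-05), with IFE levels of 359.7 and 348 against 453 and 426 CPM. For Cenpe it was -3.002 (edgeR adjusted p = 0.165, unadjusted p = 4.99e-05).

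Genes with opposite site differences in the 2 cell types were given as values. Egr1 was higher in paw in Merkel cells, at 1115 and 966 CPM in paw Merkel and 592 and 509.7 CPM in back Merkel libraries, against lower in IFE, and the difference of log2 fold changes was -2.03 (edgeR adjusted p = 0.223, unadjusted p = 0.000517). Gas1 was at 23.7 and 16.96 CPM in paw Merkel and 14.2 and 5.08 CPM in back Merkel libraries, with a difference of -2.43 (edgeR adjusted p = 0.343, unadjusted p = 0.00349). For Vim, which was lower in paw in both cell types by the fitted fold changes (-2.63 ± 0.56 SE in IFE and -0.57 in Merkel cells), it was -2.05 (edgeR adjusted p = 0.486, unadjusted p = 0.0202).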

How the data were processed

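RNA of sorted IFE and Merkel cells from paw and back was measured in 8 libraries, each from 10 ng of amplified RNA read in paired ends of 150 bases, per the labels' protocols. The authors deposited gene counts (24538 rows, whole numbers) and FPKM values per library. The submitters' processing notes name DESeq2 1.6.3, Subread 1.4.6 with featureCounts, Cufflinks 2.2.1, TopHat2 2.0.13 and the build mm10; the annotation and the strand setting are not given in the sources used here. The deposited counts were fitted with edgeR 4.0.16 in R 4.3.3: filterByExpr by group (15151 genes), TMM scaling, 1 mean per group over all 8 libraries (4 residual degrees of freedom), quasi-likelihood F test, Benjamini-Hochberg adjustment over all genes, threshold 0.05. CPM are TMM-scaled, differences between a mean and a library use a prior count of 2, and the SE of a fold change is its size over the root of F. Groups came from the labels. Alternatives used DESeq2 1.42.0, limma 3.58.1 (also on log2 of the deposited FPKM + 1), other scalings and filters, a replicate block and leaving out each library. Floors for a level of 0 are 3 counts and cover counting error only. The test was tried on simulated counts first.

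The members and the gene lists were chosen with earlier results of these data known. Named genes were the sort and layer markers, up to 2 genes a list with the smallest unadjusted p at 10 CPM or more, the tested Hox and limb genes, 10 genes each way between the back libraries, and genes added after their values were seen. Gene positions and exon overlaps are from GENCODE vM21 (GRCm38, the assembly also called mm10). Promoters are from RefSeq, GRCm38.p6. Replicate numbers do not pair the samples. Results for some genes are not reported here.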

Additional observations from a re-analysis of the deposited data

Results flagged for a closer look

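Tbx5, a transcription factor of the forelimb, was below the filter on low counts and entered no comparison. It had 194 counts in the library labelled back IFE 2 and 0 counts in paw IFE 1, in paw IFE 2, in back IFE 1 and in the 4 Merkel libraries, above the 3 counts that a library at 0 allows.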

How the results depend on the processing

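The comparison of paw with back IFE had 0 calls under RLE and upper-quartile scaling, under a filter of 1 CPM in 2 libraries, with limma-trend on log2 CPM or on log2(FPKM + 1) and with the IFE libraries alone. Without a filter it had 120 calls (50 higher, 70 lower), with DESeq2 81 (27 and 54) and with the replicate block 1 (0 and 1, Gng2). The cause was not tested. Leaving out 1 library gave 0 to 15 calls (higher 0 to 9, lower 0 to 6), and the 15 came without the library labelled back IFE 2. Alternatives chosen after seeing the data, all without that library, gave 67 (37 and 30) with the filter repeated, where more genes were tested, 347 (249 and 98) with DESeq2 and 5 (5 and 0) with limma-trend. Without back IFE 1 and with the filter repeated there were 0. Of the calls without the library labelled back IFE 2, 8 of 15 were called without a filter and 6 of 15 with DESeq2 on all 8 libraries.

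For the interaction with Merkel cells, RLE gave 1 call (0 and 1, Antxr1), no filter 305 (90 and 215), DESeq2 272 (74 and 198) and the replicate block 4 (0 and 4), and leaving out 1 library gave 0 to 5 (higher 0 to 1, lower 0 to 5). Replicate numbers did not pair the samples: the correlation of deviations between paw and back IFE was -0.04, and over all pairs of groups it ran from -0.04 to 0.08.

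All 69 genes with a fitted fold change kept its direction in the 9 settings that keep every IFE library. Leaving out 1 library reversed 8, with log2 fold changes from -0.31 without back IFE 1 to 13.16 without the library labelled back IFE 2 for Hoxc10, in the same order from 0.48 to -3.44 for Hoxb3, from -0.27 to 7.22 for Sox11, from -0.18 to 3.48 for Map1b, from 0.071 to -2.04 for Ptch1 and from -0.29 to 5.14 for Krt9. For Bmp3 they ran from 0.044 without back IFE 1 to -4.78 without paw IFE 2, and for Krt10 from -0.11 without paw IFE 2 to 0.97 without paw IFE 1. Depth limits genes near 0, where a library at 0 allows 3 of its 17510481 to 26195076 counts.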
